A study of Mus musculus with 6 samples.

Results

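The BCL2 family and its intrinsic apoptosis regulators were examined in corneal epithelial RNA of control and *Krt14-Cre; Rela f/f* mice. The 10 genes were selected by their symbols, with earlier results of these data known. They are 3 pro-survival genes (*Bcl2*, *Bcl2l1* and *Mcl1*), 2 effector genes (*Bax* and *Bak1*) and 5 BH3-only genes (*Bid*, *Bad*, *Bcl2l11*, *Bbc3* and *Pmaip1*). All 10 had a row in the deposited table of 17554 genes, and 9 of them were among the 12667 genes that passed the filter on low counts and were tested.

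BCL2 family proteins decide at the mitochondrial outer membrane whether a cell starts intrinsic apoptosis. Pro-survival members hold the effectors BAX and BAK in check, and BH3-only proteins, which respond to different kinds of stress, bind pro-survival members or activate the effectors directly. Once active, BAX and BAK open pores that release cytochrome c, which assembles the apoptosome with APAF1 and caspase-9. NF-κB, which contains the RelA subunit, is known in many cell types for inducing pro-survival genes, *Bcl2l1* among them.

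Bulk RNA-seq was performed on the epithelial layer separated from the cornea of 3 control and 3 mutant samples. All mice were 2 months old and of the C57BL/6 strain, and the labels name no treatment. The mutant mice carried floxed *Rela* alleles and a Cre recombinase driven by the *Krt14* promoter, which is active in basal epithelial cells of the cornea and of other stratified epithelia. The controls were labelled WT, and whether they carried floxed alleles or Cre was not stated in the sources used here. The study describes its samples as independent, and p-values below measure the spread between these 3 samples of each genotype.

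Total expected counts lay between 19492942 and 19733834 in the 6 samples. *Rela* itself had FPKM values (reads scaled by transcript length and by library total) of 36.5, 34.7 and 33.4 in the controls and 4.93, 5.53 and 5.72 in the mutants, a log2 fold change of -2.75 ± 0.085 (SE, adjusted p = 5.5e-07, edgeR). The 6 corneal epithelial markers were abundant in all samples, with *Krt12* between 17005 and 21194 FPKM, and of these *Krt14* rose and *Aldh3a1* fell (log2 fold change -0.25, adjusted p = 0.047, edgeR). *Krt14*, whose promoter drives Cre, lay at 150 to 203 FPKM in the controls and at 1474 to 2204 FPKM in the mutants. Of 4 conjunctival and goblet cell markers 3 were tested and 1, *Krt13*, was called, as lower (-0.45, adjusted p = 0.015, edgeR). Of 4 epidermal markers 3 were tested and 1, *Ivl*, was called, as higher (1.07, adjusted p = 0.017, edgeR). The epidermal keratins *Krt1* and *Krt10* had log2 fold changes of -0.10 and -0.22 (adjusted p = 0.73 and 0.33, edgeR). Of 12 leukocyte markers 5 were tested and 2 rose, *S100a8* and *S100a9*. The summed level of the 12 ranged from 328 to 358 CPM (counts scaled to library size) in the controls and from 383 to 1286 CPM in the mutants, with the highest value in mutant sample 1. The leukocyte markers other than *Itgam*, *S100a8*, *S100a9*, *Cd68* and *Cd74* were near 0, since 7 genes together held 15 to 30.2 counts per control and 29.8 to 72.7 counts per mutant sample. Summed endothelial markers lay at 0.101 to 0.418 CPM in the controls and 0.463 to 0.748 CPM in the mutants. The 7 keratocyte and fibroblast markers, summed at 14.7 to 17.3 CPM in the controls and 9.33 to 17.2 CPM in the mutants, did not move together. *Pdgfra*, which held most of the control counts, fell (-0.78, adjusted p = 0.0050, edgeR), while *Dcn* rose from 3, 2 and 1 counts to 66, 34 and 14 counts (adjusted p = 0.0051, edgeR). Counts of *Col1a1* went from 1, 1 and 2 to 23, 23 and 6, without a test. Those of *Lum* went from 0, 1 and 0 to 23, 10 and 0, and of *Col1a2* from 5, 0 and 1 to 20, 11 and 1, also untested. *Thy1* was not called (0.57, adjusted p = 0.35, edgeR), and *Kera* had 3 or fewer counts in every sample. In bulk RNA a different number of cells of a type and a different amount of RNA per cell cannot be told apart, and the part of these markers in the values below was not tested.

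Transcripts of 4 of the 9 tested BCL2 family genes differed between the genotypes. *Pmaip1*, which encodes NOXA, rose 10.1-fold, and the effector genes *Bax* and *Bak1* rose 1.41-fold and 1.30-fold. *Bad* fell, to 0.783 of its control level. *Mcl1* and *Bcl2*, 2 of the 3 pro-survival genes, had fold changes of 0.990 and 0.943. A gene was called where edgeR's quasi-likelihood test, adjusted by the Benjamini-Hochberg method over all genes tested, gave an adjusted p under 0.05. At this threshold 13.2% of the genes tested were called, 7.82% as higher in the mutants and 5.42% as lower, beside 3 higher and 1 lower of the 9 BCL2 family genes. A stricter rule asked for a 2-fold change or more and an adjusted p no higher than 0.001, and by it 1.37% of all genes and 1 of the 9, *Pmaip1*, were called. The count includes *Pmaip1*, which passed the filter on low counts through its mutant samples. In 5 of the 9 genes the control and mutant samples did not overlap in scaled counts, beside 33.7% of all genes tested. The median log2 fold change was 0.25 over the 9 genes and -0.003 over all genes tested.

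Upstream sequences of the genes were read from RefSeq promoter windows of build GRCm38.p6, which span 250 bases before to 50 bases after an annotated start. Windows were found for 9 of the 10 genes, 15 windows in all, and none was given for *Pmaip1*. Both strands were searched for the κB consensus, which NF-κB dimers bind, and for TGANTCA, the AP-1 motif that JUN dimers bind. The κB consensus was in 8.46% and TGANTCA in 7.81% of all 32851 windows. The κB consensus matched 2 of the 15 windows, one of *Bbc3* and one of *Bcl2l1*, and TGANTCA matched 0 of them. The upstream 250 bases of *Bax* and *Bad* are shown because both genes were called and no GENCODE exon lies there, although the last 5 bases of the *Bax* stretch fall within the RefSeq gene. The *Bbc3* bases and the 30 bases of *Bcl2l1* are shown for their κB matches and lie within the RefSeq genes, before internal starts, and capitals mark the matched bases. Each is written 5′ to 3′ on the strand of the gene.

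Bax (chr7:45466899-45467148, minus strand): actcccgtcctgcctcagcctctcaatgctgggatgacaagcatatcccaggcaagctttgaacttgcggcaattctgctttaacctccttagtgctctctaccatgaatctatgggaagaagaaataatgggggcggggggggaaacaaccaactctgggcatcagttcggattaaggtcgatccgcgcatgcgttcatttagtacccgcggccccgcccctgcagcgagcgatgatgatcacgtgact
Bad (chr19:6941611-6941860, plus strand): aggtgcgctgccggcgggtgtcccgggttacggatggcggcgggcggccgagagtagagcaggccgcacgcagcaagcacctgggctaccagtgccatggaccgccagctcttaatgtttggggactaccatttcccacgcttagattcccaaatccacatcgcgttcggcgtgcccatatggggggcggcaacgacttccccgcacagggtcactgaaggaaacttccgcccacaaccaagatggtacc
Bbc3 (chr7:16309333-16309582, plus strand): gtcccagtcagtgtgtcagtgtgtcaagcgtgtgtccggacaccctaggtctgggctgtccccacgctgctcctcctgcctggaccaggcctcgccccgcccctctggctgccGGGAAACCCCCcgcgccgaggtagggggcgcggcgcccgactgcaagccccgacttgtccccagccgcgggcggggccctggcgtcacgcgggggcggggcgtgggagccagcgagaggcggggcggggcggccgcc
Bcl2l1 (chr2:152830938-152830967, minus strand): tgtttgtgGGGGGTCTCCagcatacgcctc

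The *Bbc3* match began 137 bases before the annotated start and held overlapping matches in 11 bases, and the *Bcl2l1* match of 10 bases began 242 bases before one of its starts, within an annotated exon. No match of either motif was in the windows of *Bax* and *Bad*. A match describes the letters of the window only, and binding of a factor was not measured in these samples.

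**Figure D1:**
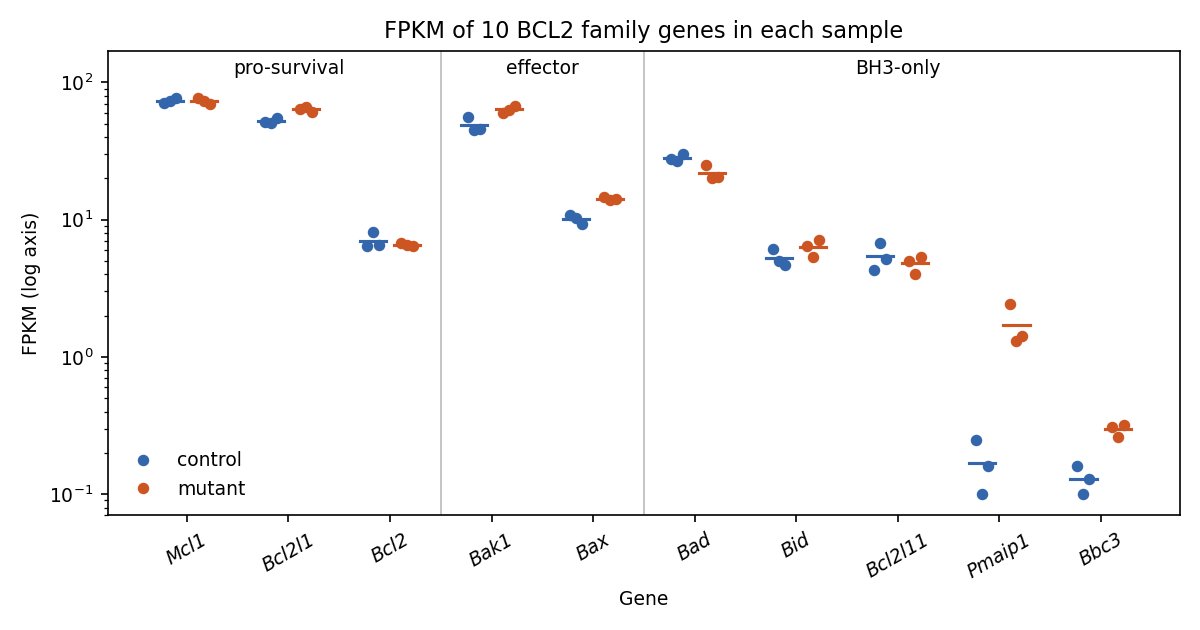
Deposited FPKM values of the 10 BCL2 family genes on a log axis in 3 control (blue) and 3 mutant (orange) samples, with points for samples and lines for group means. *Mcl1* samples overlapped between the genotypes, while *Pmaip1* lay at 0.10 to 0.25 FPKM in the controls and at 1.31 to 2.41 FPKM in the mutants.

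Of the pro-survival genes, *Mcl1* and *Bcl2l1* were among the most abundant of the 10. *Mcl1* (chr3:95656944-95663179, plus strand) encodes a short-lived pro-survival protein that binds NOXA and BAK. Its FPKM was 70.5, 73.5 and 77.4 in the controls and 77.2, 73.2 and 69.2 in the mutants. The samples overlapped, and the log2 fold change was -0.01 (95% interval -0.20 to 0.17, adjusted p = 0.93, edgeR). The interval corresponds to folds between 0.872 and 1.12.

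*Bcl2l1* (chr2:152758732-152833803, minus strand) encodes BCL-XL. It was at 51.7, 50.9 and 54.8 FPKM in the controls and at 63.9, 66.5 and 60.5 FPKM in the mutants. Every mutant sample lay above every control sample. The log2 fold change of 0.26 ± 0.077 (SE, n = 3 per genotype) missed the threshold, with an adjusted p of 0.052 in edgeR. The gene passed it with DESeq2 (adjusted p = 0.024), under a filter of 10 counts or more per sample (0.046), with limma on log2(FPKM + 1) (0.031) and log2(FPKM + 0.1) (0.030), and without mutant sample 3 (0.041).

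*Bcl2* (chr1:106538176-106714290, minus strand) encodes the founding member of the family. It was the least abundant of the 3, at 6.48, 8.16 and 6.49 FPKM in the controls and 6.79, 6.51 and 6.45 FPKM in the mutants. Control sample 2 was the highest of the 6, and the other values lay close together. The log2 fold change was -0.09 (95% interval -0.31 to 0.14, adjusted p = 0.63, edgeR).

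Summed over the 3 genes, the pro-survival level was 133 ± 5.04 FPKM (SD, n = 3) in the controls and 143 ± 6.30 FPKM in the mutants. *Mcl1* supplied 54.8%, 55.4% and 55.8% of it in the controls and 52.2%, 50.1% and 50.8% in the mutants. The share of *Bcl2l1* was 40.2%, 38.4% and 39.5% in the controls and 43.2%, 45.5% and 44.4% in the mutants. Neither share overlapped between the genotypes, and shares were described without a test. *Bcl2* supplied 4.45% to 6.16% in the 6 samples.

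Both effector genes rose. *Bax* (chr7:45461695-45466903, minus strand), whose protein moves from the cytosol to mitochondria when activated, was at 10.8, 10.2 and 9.26 FPKM in the controls and at 14.5, 14.02 and 14.2 FPKM in the mutants. All mutant samples exceeded all control samples, and the mutant values spread less than the control values (SD 0.264 and 0.785 FPKM). The log2 fold change was 0.50 ± 0.11 (SE, 95% interval 0.26 to 0.74, adjusted p = 0.014, edgeR). It was called in each of 8 other settings, and in 4 of 6 fits that left out a sample, the exceptions being without control sample 2 (adjusted p = 0.052, edgeR) and without control sample 3 (0.058). Of its annotated exon bases 12.2% overlap *Gm45808* on the same strand.

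*Bak1* (chr17:27019812-27028627, minus strand) encodes BAK, the effector that resides in the mitochondrial membrane. It was more abundant than *Bax*, at 55.7, 45.1 and 45.8 FPKM in the controls and at 59.4, 63.4 and 67.6 FPKM in the mutants. The groups did not overlap, although control sample 1 came close to mutant sample 1. The log2 fold change was 0.38 ± 0.093 (SE, 95% interval 0.17 to 0.58, adjusted p = 0.027, edgeR). The call was lost with a replicate block (0.052) and in edgeR fits without control sample 2 (0.12), control sample 3 (0.11), mutant sample 2 (0.077) or mutant sample 3 (0.068). Of the exon bases 25.5% overlap *Ggnbp1* on the opposite strand, a gene with 7 to 15 counts per sample.

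The summed effector level was 66.5, 55.3 and 55.0 FPKM in the controls and 73.9, 77.4 and 81.8 FPKM in the mutants. *Bak1* supplied 80.3% to 83.7% of it in the 6 samples, so the shares of the 2 effectors overlapped between the genotypes. Effectors made up 25.5% ± 2.63 (SD, n = 3) of the summed FPKM of the 10 genes in the controls and 30.4% ± 2.01 in the mutants, with 28.5% in control sample 1 above 28.3% in mutant sample 1.

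**Figure D2:**
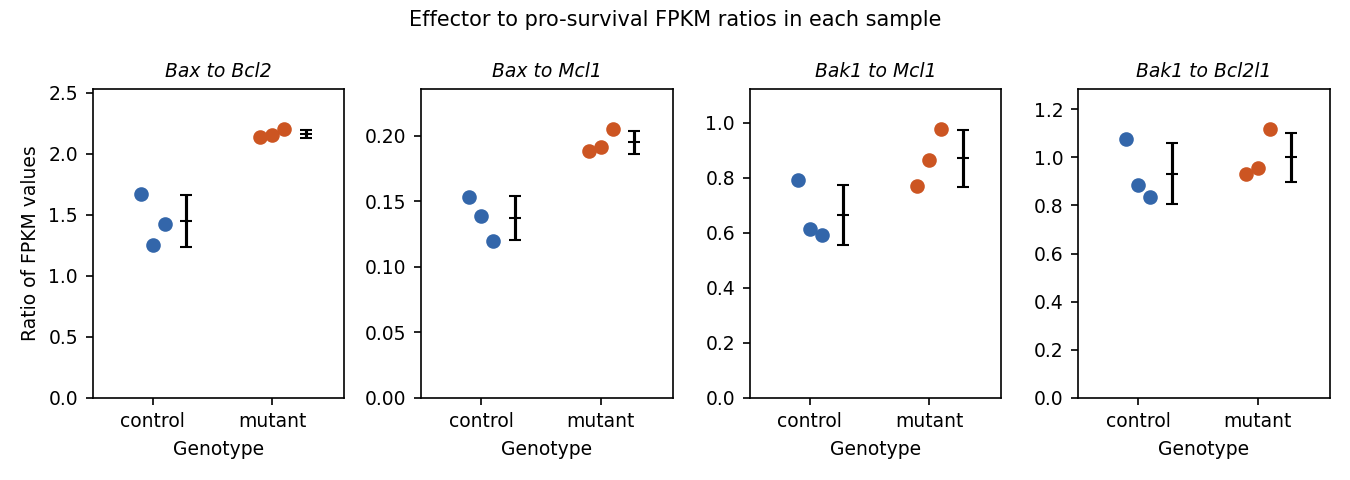
Ratios of effector to pro-survival FPKM in each sample, with points for samples and black bars for the mean and SD of 3 samples. *Bax* to *Bcl2* and *Bax* to *Mcl1* did not overlap between the genotypes, while both *Bak1* ratios did.

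The ratio of *Bax* to *Bcl2* FPKM was 1.67, 1.25 and 1.43 in the controls and 2.14, 2.15 and 2.2 in the mutants. The mutant mean was 1.49 times the control mean, with each mutant sample above each control sample. *Bax* to *Mcl1* was 0.154, 0.139 and 0.120 in the controls and 0.188, 0.192 and 0.205 in the mutants. These groups did not overlap either, and the means differed 1.42-fold. *Bax* to *Bcl2l1* had means of 0.193 ± 0.0211 (SD, n = 3) in the controls and 0.224 ± 0.0121 in the mutants. The ratio of *Bak1* to *Mcl1* was 0.665 ± 0.109 and 0.871 ± 0.104, and that of *Bak1* to *Bcl2l1* was 0.933 ± 0.127 and 1.00 ± 0.102, and both overlapped between the genotypes. These ratios are of RNA levels, and protein was not measured here.

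The BH3-only genes differed among themselves in level and in direction. *Pmaip1* (chr18:66458604-66465558, plus strand) encodes NOXA, which binds MCL1 and is a known target of p53 and of stress pathways. It had 13, 5 and 8.31 expected counts in the controls and 125, 68.1 and 74 in the mutants, or 0.25, 0.10 and 0.16 FPKM against 2.41, 1.31 and 1.41 FPKM. Every mutant sample lay above every control sample, and mutant sample 1, which also had the highest summed leukocyte markers and the most *Dcn* counts, was the highest. In that sample *S100a9* held 699, *Itgam* 451 and *S100a8* 96.1 of the 1286 CPM summed over leukocyte markers. The log2 fold change was 3.34 ± 0.38 (SE, 95% interval 2.5 to 4.18, adjusted p = 0.00053, edgeR), a fold between 5.64 and 18.2. Without mutant sample 1 the log2 fold change was 3.0 (adjusted p = 0.00032, edgeR). The adjusted p stayed under 0.05 in all 6 fits that left out a sample, but exceeded 0.001 without control samples 1 (0.0021), 2 (0.0057) or 3 (0.0059) and without mutant sample 2 (0.0011).

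*Bbc3* (chr7:16308398-16318334, plus strand) encodes PUMA, a BH3-only protein that binds all pro-survival members. It had 5, 4 and 4.99 expected counts in the controls and 12, 10 and 10 in the mutants, which correspond to 0.16, 0.10 and 0.13 FPKM and 0.31, 0.26 and 0.32 FPKM. Mutant samples lay above control samples, but the gene did not pass the filter on low counts and was not tested in the main comparison. An exact two-sided permutation test of FPKM gave p = 0.1, the smallest value that 3 against 3 samples allow. Without the filter the log2 fold change was 1.16 ± 0.46 (SE), with an adjusted p of 0.15 in edgeR. At this depth, where 3 counts equal 0.152 to 0.154 CPM, a difference of *Bbc3* was not resolved.

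*Bad* (chr19:6941861-6951905, plus strand) encodes a BH3-only protein that growth-factor kinases hold inactive by phosphorylation. It was the most abundant BH3-only gene of the 5, at 27.5, 26.7 and 29.9 FPKM in the controls and at 24.9, 20.2 and 20.5 FPKM in the mutants. All mutant samples lay below all control samples, with mutant sample 1 nearest to them. The log2 fold change was -0.35 ± 0.099 (SE, 95% interval -0.57 to -0.13, adjusted p = 0.044, edgeR). The call was lost with a replicate block (0.065) and in edgeR fits without control sample 1 (0.094), 2 (0.099) or 3 (0.15) and without mutant sample 2 (0.14) or 3 (0.11). Of the exon bases 20.5% overlap *Gpr137* on the opposite strand, whose log2 fold change was -0.09 (adjusted p = 0.51, edgeR). *Bad* lies 1.29 Mb from the targeted gene *Rela* on chromosome 19. Of the 47 tested genes between them, 3 were higher and 2 lower in the mutants, or 10.6%, with a median log2 fold change of -0.03.

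*Bid* (chr6:120893119-120917062, minus strand) encodes the protein that links death-receptor caspases to the mitochondrial pathway. It was at 6.15, 4.98 and 4.64 FPKM in the controls and 6.42, 5.37 and 7.10 FPKM in the mutants. The groups overlapped, and the log2 fold change was 0.25 (95% interval -0.06 to 0.57, adjusted p = 0.28, edgeR). Of its exon bases 17.7% overlap *Bcl2l13* on the opposite strand.

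*Bcl2l11* (chr2:128126038-128162547, plus strand) encodes BIM, which FOXO3 is known to induce when growth factors are withdrawn. FPKM values were 4.33, 6.76 and 5.21 in the controls and 4.98, 4.05 and 5.37 in the mutants. The controls spanned nearly the whole range of the mutants, and the log2 fold change was -0.19 (95% interval -0.54 to 0.15, adjusted p = 0.46, edgeR). The interval corresponds to folds between 0.690 and 1.11.

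Within the BH3-only genes, *Bad* supplied 71.6%, 69.1% and 74.7% of the summed FPKM in the controls and 63.8%, 64.8% and 59.1% in the mutants. *Pmaip1* supplied 0.259% to 0.651% in the controls and 4.06% to 6.18% in the mutants. Neither share overlapped between the genotypes. The summed BH3-only level was 39.0 ± 0.873 FPKM (SD, n = 3) in the controls and 35.0 ± 3.91 FPKM in the mutants, and mutant sample 1, at 39.0 FPKM, lay within the control range. This sum and the shares leave out further BH3-only genes, such as *Bik*, with means of 12.65 FPKM in the controls and 11.7 FPKM in the mutants.

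The order of the 10 genes by FPKM was nearly the same in both genotypes. It ran from *Mcl1* through *Bcl2l1*, *Bak1*, *Bad* and *Bax* to *Bcl2*, *Bcl2l11* and *Bid*, with *Pmaip1* and *Bbc3* last. *Bcl2l1* and *Bak1* overlapped with each other in both genotypes, and so did *Bcl2*, *Bcl2l11* and *Bid* as neighbours in the order. *Pmaip1* and *Bbc3* overlapped in the controls and were apart in the mutants, where the lowest *Pmaip1* value was 1.31 FPKM and the highest *Bbc3* value 0.32 FPKM.

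**Figure D3:**
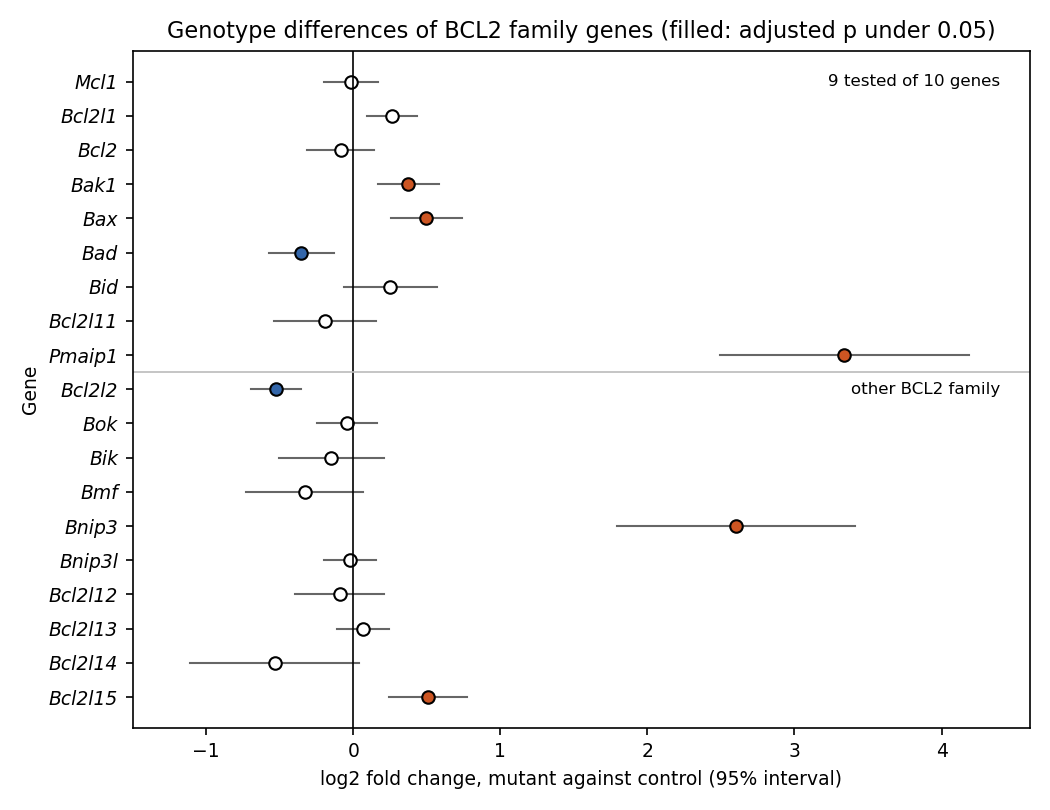
Log2 fold changes of mutant against control samples with 95% intervals from edgeR for 9 tested genes of the 10 and for 10 further BCL2 family genes. Filled points mark an adjusted p under 0.05, orange for higher and blue for lower in the mutants, and *Pmaip1* and *Bnip3* lie farthest to the right.

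Among further BCL2 family genes, *Bcl2l2*, which encodes the pro-survival protein BCL-W, fell. Its FPKM was 14.4, 15.9 and 14.8 in the controls and 10.7, 10.3 and 10.1 in the mutants. All mutant samples lay below the controls, with a log2 fold change of -0.52 ± 0.077 (SE, adjusted p = 0.0021, edgeR). It was called in each of 8 other settings and in each of 6 fits that left out a sample.

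*Bnip3*, a BH3-like gene whose protein acts in the removal of mitochondria, rose. It was at 1.08, 1.03 and 1.00 FPKM in the controls and at 10.3, 4.12 and 4.52 FPKM in the mutants. Mutant sample 1 was again the highest, and the log2 fold change was 2.61 ± 0.36 (SE, adjusted p = 0.0016, edgeR) in all samples and 2.05 without that sample. Its relative *Bnip3l* had a log2 difference of -0.02 (adjusted p = 0.90, edgeR). *Bcl2l15* rose, with 12.2, 10.4 and 12.6 FPKM in the controls and 21.0, 17.5 and 15.3 FPKM in the mutants (log2 fold change 0.51, adjusted p = 0.020, edgeR). The *Bcl2l15* call was lost without control sample 2 (0.096), control sample 3 (0.068) or mutant sample 2 (0.060).

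The effector-like gene *Bok* was not part of the effector sums above. It lay at 34.3, 30.7 and 30.5 FPKM in the controls and at 29.2, 28.8 and 35.0 FPKM in the mutants. Its log2 difference was -0.04 (adjusted p = 0.81, edgeR). The BH3-only genes *Bik* and *Bmf* had values of -0.15 (0.59) and -0.33 (0.26), and neither passed the test. *Bcl2l12*, *Bcl2l13* and *Bcl2l14* had log2 fold changes of -0.09, 0.07 and -0.53, and none of the 3 passed the test (adjusted p = 0.71, 0.63 and 0.21, edgeR). *Hrk* and *Bcl2a1a*, *Bcl2a1b* and *Bcl2a1d*, the pro-survival A1 genes known from leukocytes and from NF-κB induction, had 3 or fewer counts in every sample, so a difference was not detectable at this depth.

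**Figure D4:**
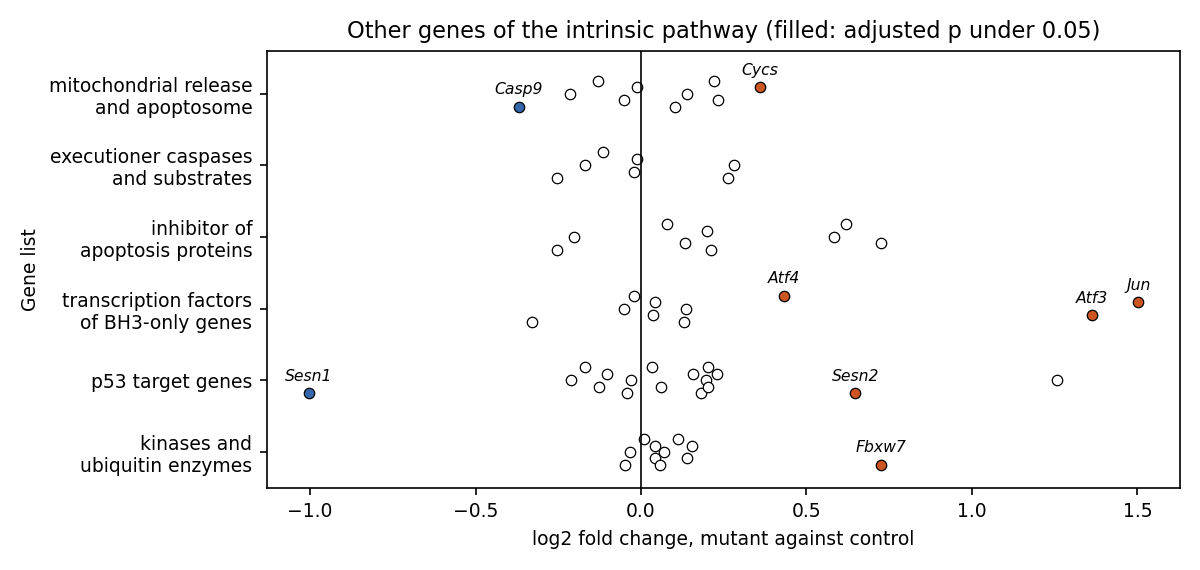
Log2 fold changes of mutant against control samples for the tested genes of 6 other lists of the intrinsic pathway, 1 point per gene. Filled and named points have an adjusted p under 0.05 in edgeR, and *Jun*, *Atf3* and *Sesn1* lie farthest from 0 among them.

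Over the other genes of the pathway, further BCL2 family genes included, 11 of 74 tested were called, 8 higher and 3 lower in the mutants. This count lies near the 13.2% of all genes tested. The apoptosome list held 1 rise and 1 fall among 10 genes. *Cycs*, which encodes cytochrome c, rose (log2 fold change 0.36, adjusted p = 0.040, edgeR), but was not called with upper-quartile scaling (0.051) or in any of 6 fits that left out a sample (0.052 to 0.14). *Casp9*, the initiator caspase of the apoptosome, fell from 14.8, 14.02 and 13.7 FPKM to 10.6, 10.6 and 11.7 FPKM (log2 fold change -0.37, adjusted p = 0.0096, edgeR).

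None of 7 genes for executioner caspases and their substrates passed edgeR's quasi-likelihood test, with 1 gene at an unadjusted p under 0.05 and 0 called by DESeq2 or limma. Of 9 tested inhibitor of apoptosis genes edgeR called 0, with 5 at an unadjusted p under 0.05. Of these *Birc3*, *Naip1* and *Naip2* were higher and *Xiap* and *Birc2* lower in the mutants. The share of all genes tested at that level is not given here. In the 8 other settings *Birc3* was called with DESeq2 and with a replicate block, and *Naip1* without a filter. *Naip2* was called with limma on log2(FPKM + 1), under a filter of 10 counts or more per sample, and with unrounded counts. All 5 were named after their values were seen.

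Among 10 transcription factors that act on BH3-only genes 3 rose. *Jun* was at 20.4, 19.8 and 17.8 FPKM in the controls and at 61.8, 55.7 and 46.8 FPKM in the mutants (log2 fold change 1.5, adjusted p = 4.9e-05, edgeR). *Atf3* rose from 0.28, 0.36 and 0.44 FPKM to 1.14, 0.98 and 0.69 FPKM (log2 fold change 1.36, adjusted p = 0.018, edgeR), with the call lost without control sample 1 (0.074), control sample 2 (0.078) or mutant sample 2 (0.058). *Atf4*, a regulator of the integrated stress response, had a log2 difference of 0.43 (adjusted p = 0.027, edgeR), and its call was lost with a replicate block (0.057) and without control sample 2 (0.12), control sample 3 (0.092), mutant sample 2 (0.090) or mutant sample 3 (0.070). *Trp53*, which encodes p53 and was named after its values were seen, had a log2 difference of 0.14 (adjusted p = 0.46, edgeR).

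Of 17 tested p53 target genes edgeR called 1 as higher and 1 as lower, and both encode sestrins, which restrain growth signalling under stress. At an unadjusted p under 0.05 in edgeR there were 6 of the 17, and the share of all genes at that level is not given here. The list leaves out the 10 BCL2 family genes examined first, *Pmaip1* among them. *Sesn2* rose from 4.01, 4.53 and 4.38 FPKM to 6.39, 6.14 and 7.76 FPKM (log2 fold change 0.65, adjusted p = 0.0057, edgeR). *Sesn1* fell from 28.8, 36.1 and 32.5 FPKM to 15.6, 16.9 and 16.6 FPKM (log2 fold change -1.0, adjusted p = 0.00027, edgeR). The median of the list was 0.06 on the log2 scale. Among 11 kinases and ubiquitin enzymes that act on BCL2 proteins, *Fbxw7*, whose protein marks MCL1 and JUN for degradation, rose from 6.32, 5.70 and 5.69 FPKM to 12.2, 9.10 and 9.81 FPKM (log2 fold change 0.72, adjusted p = 0.0014, edgeR), and the other 10 were not called.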

How the data were processed

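RNA of the corneal epithelial layer in 3 control and 3 *Krt14-Cre; Rela f/f* samples was measured by RNA-seq. The study's methods give rRNA removal and single-end reads on a BGISEQ-500 instrument, whereas the labels name an Illumina kit; whether strand was kept was not stated. Per the labels, reads were aligned with Bowtie2 2.2.5 and quantified with RSEM 1.2.12 by the authors. The deposited expected counts are per gene and sample and not normalized, and 31.5% to 32.2% of them were not whole numbers. FPKM, by the authors' RSEM run, corrects for the length of the transcript and for library size. Their mean columns and their fold changes and p-values between the genotypes were not used. The labels name build mm9, but the chromosome accessions in the table are those of GRCm38. Gene coordinates come from RefSeq GRCm38.p6, and strands and exon overlaps from GENCODE, since the strand given in the table for *Bcl2* and *Bcl2l1* differed from it.

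Expected counts were rounded and tested with edgeR 4.0.16 in R 4.3.3 (TMM scaling, filterByExpr at min.count 10 and min.total.count 15, quasi-likelihood test of genotype), with Benjamini-Hochberg adjustment over 12667 genes. Standard errors were derived from each fold change and its F statistic. CPM values are TMM-scaled. The comparison was repeated with DESeq2 1.42.0, with upper-quartile scaling, without a filter, under a filter of 10 counts or more per sample, with limma 3.58.1 on log2(FPKM + 1) and log2(FPKM + 0.1), with a replicate block, with unrounded counts, and with each sample left out in turn. Shares, sums and ratios were also computed from expected counts. The main edgeR fit, DESeq2 and a limma fit on log CPM were also run on simulated counts, and the other settings were not. Totals of 19492942 to 19733834 set a floor of 3 counts at 0.152 to 0.154 CPM, which covers counting error only. All 10 BCL2 family genes are named, as are called genes of the other lists and all further BCL2 family genes in the table. The genes and the lists were chosen with earlier results of these data known. *Bcl2l10* was not analysed here.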

Additional observations from a re-analysis of the deposited data

How the results depend on the processing

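Of the 4 BCL2 family genes called, 2 were called with a replicate block, *Bax* and *Pmaip1*. Deviations of same-numbered samples from their group means correlated at -0.03, 0.07 and -0.07, and those of differently numbered samples at -0.05 to 0.09. Deviations of 3 samples from their own mean constrain each other, so these values do not settle whether same-numbered samples shared more than a number. The pairing is not part of the stated design. With the block *Bak1* had an adjusted p of 0.052 and *Bad* of 0.065 in edgeR. Leaving out 1 sample gave 1 to 4 called BCL2 family genes, with 1 without control sample 2 and 1 without control sample 3. Calls over all genes tested moved as well, from 13.2% to 11.2% with the block, 6.66% without control sample 2, 7.76% without control sample 3 and 14.6% without mutant sample 1. The stricter rule called 1 gene, *Pmaip1*, but 0 with at least 10 counts in every sample, where *Pmaip1* was not tested, and 0 with limma on log2(FPKM + 1), where its adjusted p was 0.0015. Leaving out 1 sample gave 0 to 1. The 11 called genes of the other lists became 7 to 13 when 1 sample was left out. Over 28 named genes and 391 settings, 354 kept their side of the threshold, 31 lost and 6 gained a call, and none of the called genes changed direction. The ratio of *Bax* to *Bcl2* stayed between 1.40 and 1.62 times the control, and that of *Bax* to *Mcl1* between 1.33 and 1.51 times, when 1 sample was left out. In expected counts the mutant *Mcl1* share of the pro-survival sum was 0.945 of the control share, against 0.922 in FPKM. For the other shares, sums and ratios the mutant mean over the control mean moved by less than the spread between samples. The shares themselves depend on the scale, since expected counts are not corrected for transcript length. With 3 samples per genotype, *Bak1*, *Bad* and *Bcl2l1* lie close to the threshold, and low counts limit *Bbc3*, *Hrk* and the A1 genes.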
